A study of Mus musculus with 5 samples.

Results

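Krüppel-like factors (Klf) are zinc finger transcription factors that bind GC-rich and CACCC-type sequences. The loci of 10 of their genes (Klf3, Klf4, Klf5, Klf6, Klf7, Klf9, Klf10, Klf12, Klf13 and Klf16) were examined for occupancy by Pou4f1, a POU-homeodomain factor of retinal ganglion cells (RGCs). A region was assigned to a gene when it overlapped the gene body in the GENCODE M21 annotation of mm10 or lay within 20 kb of it. By this rule 9 of the 8038 regions in the table belonged to 8 of the 10 genes, and Klf4 and Klf9 had none. Signal was measured by CUT&Tag, in which an antibody directs a transposase to tag the DNA next to a chromatin-bound protein. Each sample was a pool of 4 retinas from wild-type mouse embryos at E16.5, with no further allele or agent in any group. The groups used here were rabbit anti-Pou4f1 (n = 2) and rabbit IgG, the negative control (n = 2), and a single rabbit anti-H3K9AC library was not analysed here. Of the control columns, one bears the name IgG and the other the name negative control; the second was counted as an IgG library, since no other negative control is described. Since the whole retina was used, the cells that carry Pou4f1 were a part of the material, and fewer occupied cells cannot be told apart from less occupancy per cell.

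The family is known for opposing roles in axon growth. In RGCs, Klf6 and Klf7 promote the growth of axons, whereas Klf4 and Klf9 suppress it, and the loss of growth ability around birth goes along with falling Klf6 and Klf7 and rising Klf4 and Klf9. Members also differ in their partners: Klf3 and Klf12 recruit the corepressor CtBP, Klf9, Klf10, Klf13 and Klf16 recruit Sin3A, and Klf4, Klf5, Klf6 and Klf7 are better known as activators. POU factors of the Pou4f type recognise AT-rich sites, unlike the GC-rich stretches that surround most Klf starts.

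The sequences below are shown because they hold, or lack, the letters that a POU factor or a GC-box factor would recognise at these loci. The first lies in an intron of Klf7 (mm10, chr1:64060811-64060930, plus strand) and carries in capitals the only match to the POU consensus of 10 letters inside any of the 9 regions.

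Klf7 intron: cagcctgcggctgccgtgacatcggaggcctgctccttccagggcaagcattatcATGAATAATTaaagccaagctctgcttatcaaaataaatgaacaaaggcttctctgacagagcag

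A shorter POU core, AATNATT, which is part of that consensus, occurred once in the region upstream of Klf12 (chr14:100285613-100285679, minus strand), and the octamer ATGCAAAT of Pou2-type factors once in the region at Klf5 (chr14:99299553-99299620, plus strand). Both are in capitals.

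Klf12 upstream: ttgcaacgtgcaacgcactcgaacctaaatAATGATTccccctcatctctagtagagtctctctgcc

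Klf5 start: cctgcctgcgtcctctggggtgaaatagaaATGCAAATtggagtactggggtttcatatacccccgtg

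The stretches next to the starts of the growth-promoting and growth-suppressing genes are given on the coding strand, with the GC box GGGCGG in capitals in either orientation. That of Klf6 is the last 250 bases of its region (chr13:5861207-5861456, plus strand), and that of Klf7 the 250 bases before its outermost start (chr1:64122283-64122532, minus strand).

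Klf6 start: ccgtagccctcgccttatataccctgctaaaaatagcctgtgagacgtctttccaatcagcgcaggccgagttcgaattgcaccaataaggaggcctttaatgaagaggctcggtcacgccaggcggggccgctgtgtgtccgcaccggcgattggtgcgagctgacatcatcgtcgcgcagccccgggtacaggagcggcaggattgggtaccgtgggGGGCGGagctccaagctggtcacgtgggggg

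Klf7 start: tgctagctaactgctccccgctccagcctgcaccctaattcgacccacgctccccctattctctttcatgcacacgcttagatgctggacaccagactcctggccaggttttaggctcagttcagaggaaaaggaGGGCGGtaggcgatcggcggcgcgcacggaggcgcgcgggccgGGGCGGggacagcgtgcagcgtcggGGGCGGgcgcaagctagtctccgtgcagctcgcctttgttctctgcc

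For Klf4 (chr4:55532476-55532725, minus strand) and Klf9 (chr19:23140976-23141225, plus strand), the 250 bases before the start in RefSeq (GRCm38.p6) are shown. No region of the table covered them.

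Klf4 start: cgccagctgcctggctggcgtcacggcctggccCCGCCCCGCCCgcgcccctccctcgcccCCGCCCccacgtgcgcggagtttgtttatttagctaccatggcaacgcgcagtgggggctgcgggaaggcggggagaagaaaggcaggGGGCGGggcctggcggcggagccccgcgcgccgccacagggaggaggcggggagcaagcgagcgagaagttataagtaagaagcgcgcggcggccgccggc

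Klf9 start: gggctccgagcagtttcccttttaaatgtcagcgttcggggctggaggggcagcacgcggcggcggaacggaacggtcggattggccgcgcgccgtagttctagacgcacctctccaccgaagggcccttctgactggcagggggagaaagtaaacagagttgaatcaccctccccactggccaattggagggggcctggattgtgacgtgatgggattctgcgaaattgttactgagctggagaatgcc

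The GC box occurred once in the Klf6 stretch, 3 times in that of Klf7, 4 times in that of Klf4 and at no place in that of Klf9. Of 32851 RefSeq windows of 250 bases before a start, 32.7% held at least 1 GC box, and 8.47% held 3 or more. The RefSeq window of Klf7, which lies at an inner start, held 1. Promoter sequences were found in RefSeq for 7 of the 10 genes, and 5 of these 7 held a GC box. The RefSeq window of Klf12 also lies at an inner start and held 0, beside 4 in the 300 bases around its 5′ end.

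Most regions lay at or close to the starts of their genes. A start region was one with its midpoint within 1 kb of an annotated transcription start of the gene, and 7 of the 10 genes had one: Klf3, Klf5, Klf6, Klf7, Klf10, Klf13 and Klf16. Among all 21755 protein-coding genes on the same chromosomes, 25.1% had a start region, and 41.2% had any region within 20 kb. An annotated start lay inside a region for 5 of the 10 Klf genes, beside 23.6% of all protein-coding genes. The regions of Klf3 and Klf6 ended before the gene. The 5′ ends of all 10 Klf genes were CpG-rich, with at least 55% G + C and a ratio of observed to expected CpG of at least 0.6 in the 300 bases around the start. Of the 8025 protein-coding genes with such a 5′ end, 46.4% had a start region. The 10 genes were chosen with earlier results of these data known, so their count does not stand for the family. Of the 7 other Klf genes, 1 had a start region.

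**Figure D1:**
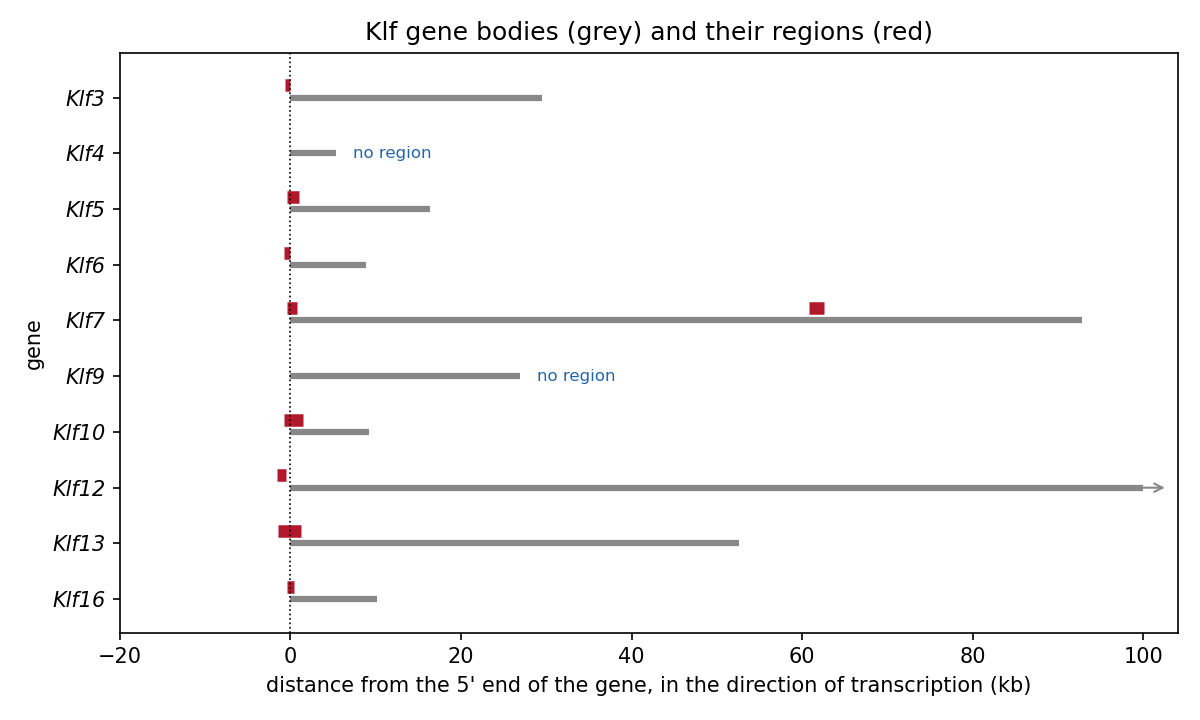
Each gene body is drawn in grey from its 5′ end to the right in kb, and its regions in red to scale. The body of Klf12 (414048 bp) runs beyond the right edge. Klf4 and Klf9 have no region, and Klf7 is the one gene with a region far inside its body.

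The growth-promoting genes carried 3 regions and the growth-suppressing genes 0. Klf6 (chr13:5861482-5870394) had 1 region, at chr13:5860756-5861456, which ended 25 bp before the gene and overlapped no annotated gene. Klf7 (chr1:64029447-64122282) had a region over its outermost start at chr1:64121566-64122701, of which 419 of 1136 bp lay upstream of the gene and 81 bp in an exon. Its second region, at chr1:64059755-64061478, lay inside an intron of 36269 bp, 17228 bp from the 5′ end and 17317 bp from the 3′ end of that intron, and touched no exon. The midpoint of this intronic region was 60866 bp from the nearest start of Klf7 and 18038 bp from the nearest start of any gene, that of Gm13748.

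At Klf6 the signal was 582 and 540 in Pou4f1 replicates 1 and 2, with controls at 33.7 (the library named IgG) and 0 (negative control). Signal is the mean coverage per base of the region after a scaling of each library, so it can be compared between regions of different length. At the Klf7 start it was 516 and 626 in the Pou4f1 libraries, against 10.7 and 0. In both regions each Pou4f1 library lay far above each control, and the 2 genes were nearly alike in level. The Klf7 start region ranked 221 and the Klf6 region 247 of 8038 by mean Pou4f1 signal. In replicates 1 and 2 taken alone the ranks were 250 and 270 for the Klf7 start and 152 and 410 for Klf6. Among the 5147 regions within 1 kb of a start, 1.55% had a higher mean signal than the Klf7 start region and 1.75% than the Klf6 region.

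At the Klf7 intronic region the Pou4f1 libraries stood at 318 and 379, and the controls at 21.9 (IgG) and 8.0 (negative control). It stood below the Klf7 start region in both Pou4f1 libraries and ranked 1048 of 8038. Of the 2881 regions away from starts, 21.7% had a higher mean signal.

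**Figure D2:**
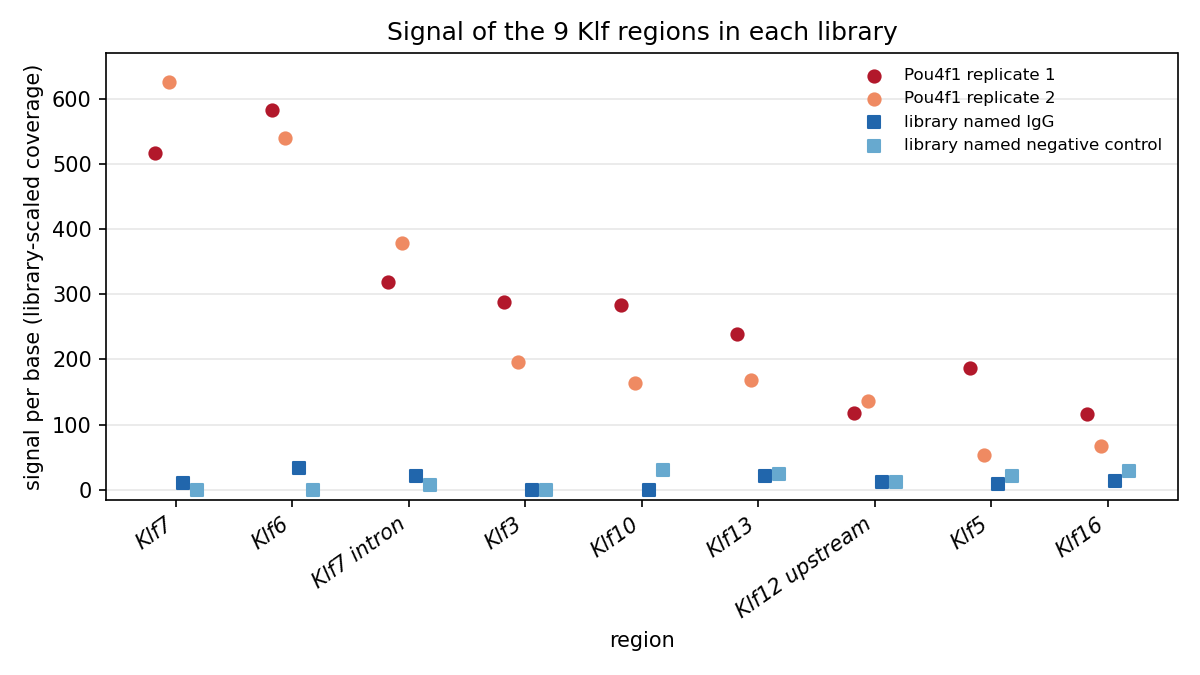
Signal per base of the 9 Klf regions, ordered by mean Pou4f1 signal, with 1 point per library. The start regions of Klf7 and Klf6 lie between 516 and 626 in the Pou4f1 libraries, all other regions at or below 379, and no control point is above 33.7.

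No value can be given for Klf4 (chr4:55527143-55532466) or Klf9 (chr19:23141226-23168134), since the table lists called regions only, and a missing region is not a signal of 0. The nearest region to Klf4 was 176 kb away, over the start of Rad23b, a DNA repair gene, and the nearest to Klf9 was 221 kb away, at chr19:23388754-23389319. Of all protein-coding genes, 23.8% were farther than Klf4 from their nearest region, and 20.2% farther than Klf9. Of those with a CpG-rich 5′ end, 8.34% and 6.18% were farther. The difference between the growth classes in signal could not be computed, as one class had no value. With 2 Pou4f1 and 2 IgG libraries, an exact two-sided permutation test over the libraries could not have passed 0.05 in any case.

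**Figure D3:**
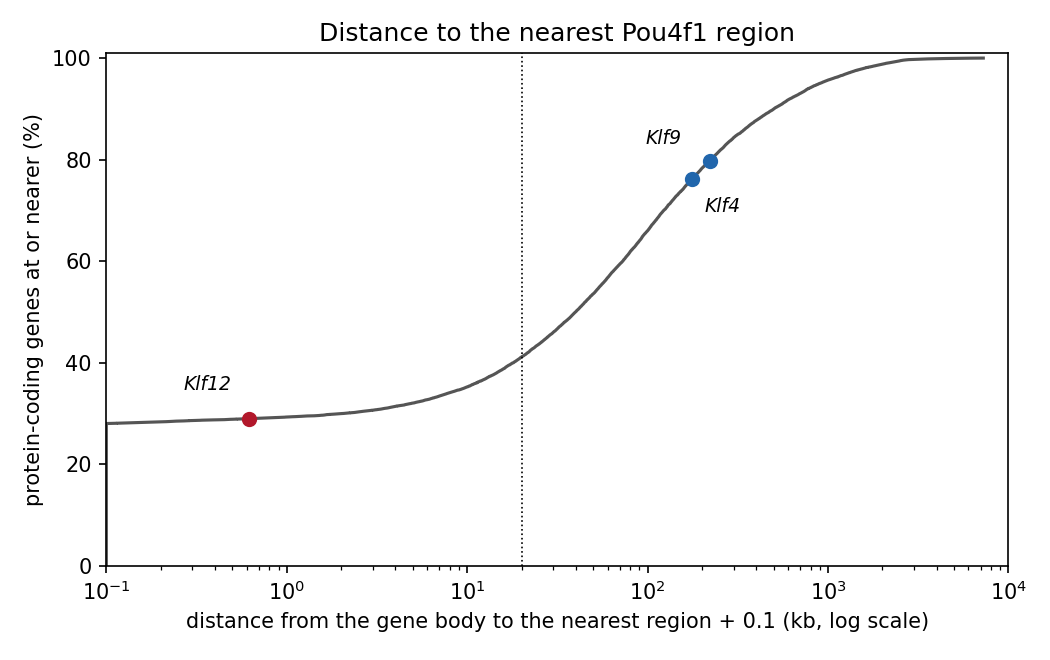
The curve gives the percentage of protein-coding genes whose body lies within a given distance (kb, log scale, 0.1 kb added) of its nearest region, and the dotted line marks 20 kb. Klf4 and Klf9 (blue) lie to the right of that line at 176 and 221 kb, and Klf12 (red) at 0.514 kb.

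The counts were also taken at other limits. The searched windows spanned 181749 bp for Klf6 and Klf7 and 112233 bp for Klf4 and Klf9. In the gene bodies alone the counts were 2 and 0, within 10 kb 3 and 0, within 50 kb 5 and 0, within 100 kb 7 and 0, and within 250 kb 13 and 2, the last 2 limits being chosen after the data were seen. Most of these belonged to Klf7, the longer gene, with 2 in its body, 4 within 50 kb, 6 within 100 kb and 11 within 250 kb. Klf6 had 0 in its body, as had Klf4 and Klf9, then 1 up to 100 kb and 2 within 250 kb. Just outside the limit, at 26.6 kb from Klf7, was a region near the start of Gm13750 with a signal of 311 and 392 in the Pou4f1 libraries and 0 and 20.4 in the controls. No region of the 10 genes lay between 0.514 kb from a gene and the limit of 20 kb. The nearest region beyond it was 25.4 kb from Klf16, with a signal of 142 and 83.0 in the Pou4f1 libraries and of 13.1 and 38.7 in the controls.

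The CtBP-binding members were each marked upstream of the gene, as was Klf6. At Klf3 (chr5:64803388-64832901), a repressor with roles in blood and fat cells, the region at chr5:64802694-64803293 ended 94 bp before the gene and overlapped the lncRNA Gm20033. Its signal was 288 and 196 in the Pou4f1 libraries and it was listed at 0 in both controls, the only Klf region to be so. At Klf12 (chr14:99870632-100284679), a repressor with roles in cell proliferation, the region at chr14:100285194-100286261 had its midpoint 1048 bp upstream of the start, just outside the limit of 1 kb. That midpoint was 438 bp from the start of the lncRNA Gm41231, which the region overlapped, so it cannot be assigned to Klf12 alone. Its signal was 118 and 136 in the Pou4f1 libraries, against 11.4 and 12.5 in the controls.

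The Sin3A-binding members with a region had it over a start, where Klf5 and Klf7 also had a region. Klf13 (chr7:63886351-63938915), a regulator in lymphocytes and the heart, had the longest of the 9 regions, 2726 bp at chr7:63937693-63940418. Its signal was 239 and 169 in the Pou4f1 libraries, against 21.8 and 23.7 in the controls. Klf10 (chr15:38291463-38300706), an early target of TGF-β, had a region of 2324 bp at chr15:38299179-38301502 that covered 2 of its 4 annotated starts. The Pou4f1 signal there was 284 and 164, and the controls were at 0 and 30.0. Only 0.921% of all regions were longer than that of Klf10, and 0.373% longer than that of Klf13. Klf16 (chr10:80567124-80577321) had the lowest Pou4f1 signal of the 9, at chr10:80576922-80577780, with 116 and 66.9 against 13.8 and 29.5.

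Klf5 (chr14:99298691-99315036), a regulator of epithelial growth, had a region at chr14:99298301-99299639 that covered both of its annotated starts. The Pou4f1 libraries disagreed there more than at any other Klf region, at 187 and 53.4, and the controls were at 8.8 and 20.9. Replicate 2 was 0.286 times replicate 1, while the median ratio over regions within 1 kb of a start was 0.701, and 3.19% of those had a lower ratio.

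Ranked by mean Pou4f1 signal among all 8038 regions, the order was Klf7 start (221), Klf6 (247), Klf7 intron (1048), Klf3 (2339), Klf10 (2688), Klf13 (3122), Klf12 (5706), Klf5 (5976) and Klf16 (7038). The median rank was 2688, and 6 of the 9 were in the upper part of the table. Between the libraries the order of Klf6 and the Klf7 start switched, so these neighbours did not differ beyond the spread. The Klf6 and Klf7 start regions lay above the other 5 start regions in both Pou4f1 libraries, at 516 to 582 against 116 to 288 in replicate 1 and at 540 to 626 against 53.4 to 196 in replicate 2. In the controls the same groups overlapped, at 10.7 to 33.7 against 0 to 21.8 in the library named IgG. In the negative control both Klf6 and Klf7 were at 0, and the other 5 at 0 to 30.0 with a median of 23.7. This contrast was seen in the data and was not tested. When regions were ranked by signal times length, the Klf7 start came at 228, the Klf7 intron at 293, Klf13 at 370, Klf10 at 433 and Klf6 at 856.

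The Pou4f1 libraries stood in different proportions at the Klf regions. Replicate 2 was above replicate 1 in 3 of the 9 regions, both of Klf7 (1.21 at the start and 1.19 in the intron) and that upstream of Klf12 (1.15). Over all regions near a start the median ratio was 0.701, with an interquartile range of 0.546 to 0.900, and over all other regions it was 1.16. Of the start regions, 6.49% had a higher ratio than that of Klf7, and 22.4% a higher ratio than that of Klf6 (0.928). These ratios are descriptions of 2 libraries and carry no test.

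**Figure D4:**
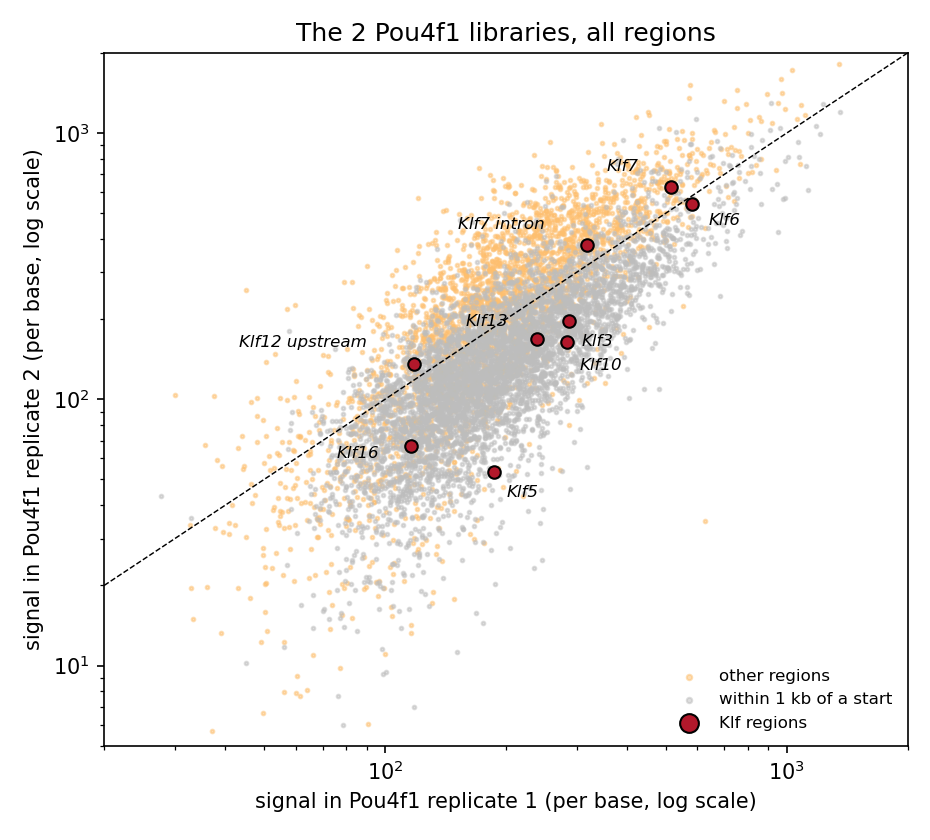
Signal in Pou4f1 replicate 1 against replicate 2 on log axes for all regions, grey within 1 kb of a start and orange elsewhere, with the 9 Klf regions in red and equality dashed. Both Klf7 regions and the Klf12 region lie above the line, the other 6 below it, and Klf5 farthest below; 22 regions outside the axes are not drawn.

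For the comparison of Pou4f1 with IgG, all 9 Klf regions had both Pou4f1 libraries above both controls, as had 96.5% of all regions. The regions were called by the authors with IgG as the control, so a higher Pou4f1 signal is in part how they came to be listed. By limma on log2(signal + 1), adjusted after Benjamini and Hochberg across the 8038 regions and called at 0.05, 5 of the 9 were higher in Pou4f1, and the background was 64.8% of all regions. Their median log2 difference was 4.60, beside 5.22 over all regions, and 4 of the 9 were above that median. The 5 of 9 is near that background.

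The 5 that passed were both Klf7 regions and those of Klf3, Klf12 and Klf13. The log2 difference was 7.38 ± 1.45 (SE, n = 2 against 2) at the Klf7 start, with an adjusted p of 0.0277 by limma. With 1 control at 0, this size depends on the pseudocount. It was 9.09 with a pseudocount of 0.1, where the region did not pass, and 5.33 with 10, where it did. In the Klf7 intron the log2 difference was 4.60 ± 0.66, with an adjusted p of 0.0142 by limma. At Klf3 the fitted difference was 7.90 ± 0.43 (adjusted p = 0.00222 by limma), a value set by the pseudocount since both controls were at 0. It was 3.30 ± 0.39 at Klf12 and 3.09 ± 0.42 at Klf13, with adjusted p of 0.00896 and 0.0129 by limma.

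The Klf6 region did not pass in spite of its high rank, with a log2 difference of 6.57 ± 2.05 and an adjusted p of 0.0609 by limma. Its controls were at 33.7 and 0, and their distance on the log scale enters the spread that the test uses. Klf10, with controls at 0 and 30.0, likewise did not pass (5.28 ± 2.01, adjusted p = 0.0861 by limma), and neither did Klf5 (2.79 ± 0.92, adjusted p = 0.0668) nor Klf16 (2.07 ± 0.64, adjusted p = 0.0596). With pseudocounts of 0.1 and 10 the log2 difference was 8.25 and 4.77 at Klf6, and 6.96 and 3.50 at Klf10. Over the whole table, 39.4% of the 3516 regions with exactly 1 control at 0 passed, beside 99.7% of the 1835 with both at 0 and 74.1% of the 2687 with neither. Without the adjustment, 7 of the 9 Klf regions were under 0.05. The share of all regions under that limit was not counted. It is at least the 64.8% that passed, since the adjustment only raises p, so the 7 of 9 sets no Klf trait apart.

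The control values rested on little coverage. In each library the signal times the length of the region was a whole multiple of a fixed step (for 99.98% of values above 0 in each Pou4f1 library and 100% in each control, within 0.05 of a whole number), and a step may be read as 1 base covered once. On this scale the 33.7 of Klf6 in the library named IgG was 310 steps over 701 bp, and the 10.7 at the Klf7 start was 160 steps over 1136 bp. The Pou4f1 signal there was 9073 and 6191 steps at Klf6 and 13036 and 11630 steps at the Klf7 start, or 8.8 to 12.9 steps per base. At Klf16 it was 2.6 and 1.1 steps per base.

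How the libraries are scaled matters for the weaker members. If each library is divided by its column total, the median log2 difference over all regions moves by -2.48. Klf5, Klf12, Klf13 and Klf16 then turn to below 0, while Klf3, Klf6, Klf7 and Klf10 stay above it. The totals are summed over the called regions alone, so this scaling makes the Pou4f1 and IgG totals equal. A value below 0 then means a smaller share of that total than in IgG, not a signal below IgG. Under this scaling, and likewise with IgG taken as 4 times shallower, 1 of the 9 regions passed, that of Klf3, beside 22.7% and 26.8% of all regions. Both controls of Klf3 were at 0, which a rescaling of IgG cannot change, so its call is no sign of stability. Of the 8 settings that kept all 4 libraries, the Klf7 start passed under 4, the Klf7 intron under 6 and Klf6 under 1.

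In base composition the Klf regions fell into the 2 kinds that make up the table. The 8 at or upstream of starts had 61.9 to 74.2% G + C and a CpG ratio of 0.660 to 0.885, beside medians of 62.7% and 0.772 over all regions near a start. Klf3 (74.2%) and Klf16 (73.6%) were the most GC-rich, with 1.32% and 1.92% of start regions above them. The Klf7 intronic region had 48.1% G + C and a CpG ratio of 0.211, beside medians of 49.0% and 0.243 over regions away from starts.

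**Figure D5:**
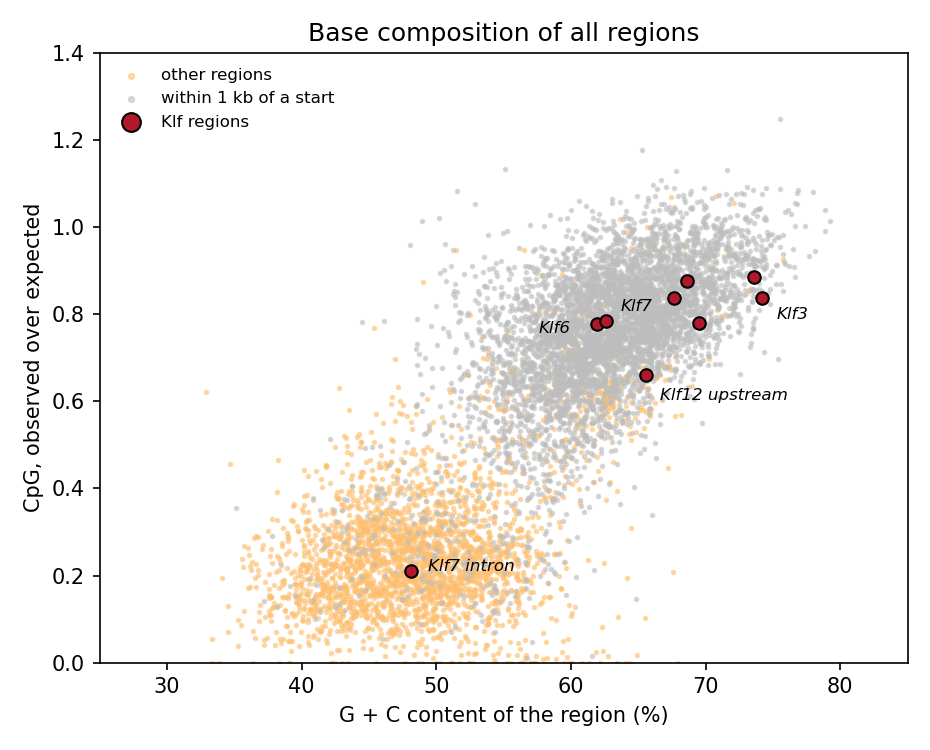
G + C content (%) against the ratio of observed to expected CpG for all regions, grey within 1 kb of a start and orange elsewhere, with Klf regions in red. The Klf7 intronic region lies at 48.1% and 0.211 among the regions away from starts, and the other 8 lie at 61.9% or more among the start regions; 13 regions without a value or outside the axes are not drawn.

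A single POU consensus match was found inside the Klf regions. The consensus of 10 letters, searched on both strands, was in the central 200 bp of 0 of the 9 regions, beside 4.38% of the 8028 regions on chromosomes (0.68% near starts and 11% elsewhere). Searched over whole regions it was found in 1 of 9, the Klf7 intron, beside 11.1% of all. The site there, shown above, reads ATGAATAATT at chr1:64060866-64060875, 254 bp from the midpoint of the region. In windows of the same 1724 bp centred on the regions away from starts, 28.9% held the consensus. No window of 200 bp placed 2 kb to either side of the 9 regions held it (0 of 18). Over the 10 loci with 20 kb to either side there were 70 matches, of which 45 were at Klf12, the longest gene, 7 at Klf7, 3 each at Klf4 and Klf9, and 2 at Klf6. Of these 70, 1 was inside a region.

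The 7-letter core AATNATT, which is contained in every match to the consensus, was in the central 200 bp of the Klf12 region only (1 of 9, beside 7.35% of all), and in 2 of 9 whole regions, those of Klf12 and the Klf7 intron (beside 21.3% of all). The octamer ATGCAAAT was in the whole region of Klf5 only, beside 3.64% of all regions. The GC box GGGCGG was in all 9 whole regions, beside 66.2% of all regions and 90.1% of those near starts. There were 17 matches at Klf10 and 16 at Klf13, the longest regions, 7 at Klf3, the shortest, 2 at Klf6 and 1 in the Klf7 intron. The CACCC box CCNCACCC, a form of the site that Klf proteins themselves bind, was in 3 of 9 whole regions (Klf5, Klf10 and, with 4 matches, Klf13), beside 39.2% of all.

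Other genes of the family were searched in the same way. Of 16 further Klf and Sp genes, 7 had a region within 20 kb and 5 a start region, beside 41.2% and 25.1% of all protein-coding genes. One of the 7 other Klf genes was among them, Klf11, and 6 of the 9 Sp genes. No region was assigned to Klf1, Klf2, Klf8, Klf14, Klf15, Klf17, Sp5, Sp6 or Sp7. All 7 regions had both Pou4f1 libraries above both controls, and 2 passed by limma, those of Sp1 and Sp3, beside 96.5% and 64.8% of all regions. Sp1, a general activator at GC boxes, had the highest start region, with 767 and 416 in the Pou4f1 libraries against 20.5 and 24.6 (rank 195, log2 difference 4.59 ± 0.52, adjusted p = 0.00839 by limma). Its neighbour in order, Sp4, a neuronal Sp factor, had 345 and 262 against 0 and 23.0. The lowest were Sp2, at 213 and 128 against 14.7 and 44.3, and Klf11, at 189 and 123 against 14.5 and 43.2. Whether the 10 Klf genes differ from these 16 was not tested.

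Genes known to promote or to restrain axon growth were set beside the Klf genes. Of 15 promoting genes, 10 had regions (15 in all), and 10 of the 15 passed by limma, with a median log2 difference of 5.53. Of 12 restraining genes, 9 had regions (14 in all), and 10 of the 14 passed, with a median of 5.26. Both counts of passing regions were close to the 64.8% of the whole table. Of all protein-coding genes, 41.2% had a region within 20 kb. A start region was found at 7 genes of each list, beside 25.1% of all protein-coding genes and 46.4% of those with a CpG-rich 5′ end. The highest start regions of promoting genes were those of Stat3, the transducer of cytokine signals (530 and 1014 against 11.5 and 52.9, rank 71), and Stmn2, a microtubule regulator of growth cones (414 and 396, with both controls at 0, rank 695). Taking the higher start region where a gene had more than 1, the lowest genes were Sox11, a neuronal transcription factor (142 and 152 against 0 and 9.2), and Basp1, a membrane protein of growth cones (159 and 79.3, with both controls at 0). The other start region of Sox11 was lower still, at 106 and 124 with both controls at 0.

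Among restraining genes the highest start regions were those of Rtn4, which encodes the myelin inhibitor Nogo (294 and 194 against 0 and 21.7), and Rhoa, a GTPase that collapses growth cones (254 and 102 against 5.3 and 10.3). The lowest were those of Tsc1, a brake on mTOR (95.3 and 56.6 against 0 and 34.8), and Socs3, a brake on Stat3 signalling (81.6 and 63.9 against 6.1 and 11.3). Atf3, Sprr1a, Lin28a, Mtor and L1cam of the promoting list had no region, nor had Tsc2, Dusp14 and Cdkn1a of the restraining list. The Klf6 and Klf7 start regions, at means of 561 and 571, were thus below the Stat3 start region and above every other start region named from these lists. Away from starts, a restraining gene held the highest of the 29 regions of both lists. It was a region of Efna5, at 1061 and 1131 in the Pou4f1 libraries against 0 and 17.5 (rank 18).

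As a check of the tissue, 6 of 10 genes of the embryonic retina had a start region (Pax6, Rax, Atoh7, Pou4f1, Pou4f2 and Isl1). Of 7 genes of other tissues, 0 had a start region. Over all protein-coding genes the share was 25.1%, and over those with a CpG-rich 5′ end 46.4%, so these small counts say little by themselves. Within 20 kb, all 10 retinal genes had a region, though Six3, Rbpms, Gap43 and Elavl3 had none at a start. Of the 7 genes of other tissues, Myod1 alone had a region within 20 kb, beside 41.2% of all protein-coding genes. Of all regions, 46.2% were at 0 in the library named IgG and 43.2% in the negative control.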

How the data were processed

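The authors made CUT&Tag libraries from pooled E16.5 retinas, trimmed and masked the reads, mapped them to mm10 with Bowtie2 2.4.5 and called regions by SEACR under its relaxed setting (tools also named in the submitters' processing notes). The deposited values are signal: mean coverage per base of each region times a library factor. The scaling, the depth and any pooling of libraries for the calls were not given in the sources used here. Precision is limited by the step between values, and starts were raised by 1 base.

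From these, log2(signal + 1) was compared between Pou4f1 (n = 2) and IgG (n = 2) with limma 3.58.1 in R 4.3.3, Benjamini-Hochberg adjusted over 8038 regions. The test was run on simulated data first. The authors call the libraries of a group independent replicates. Whether each came from its own pool of retinas was not stated, so p-values measure the spread between these libraries. The annotation was GENCODE M21, and bases were read from GRCm38.p6, the same assembly as mm10. Python 3.11.15, numpy 2.4.6, pandas 2.3.3 and matplotlib 3.10.9 were used for the other steps.

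The members and lists were chosen with earlier results of these data known. Every region of each member is named, and of each other list the 2 genes with the highest and the 2 with the lowest mean Pou4f1 signal in a start region, and genes without a region. List genes that are not reported here enter no count of a list. Genes and regions outside that rule (Rad23b, Sp3, Myod1, the regions beyond 20 kb, Dclk2, Efna5) were named after their values were seen. Alternatives covered the scaling of IgG, pseudocounts of 0.1 and 10, the spread, a filter, a 2-fold threshold, left-out libraries, distances and motif windows.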

Additional observations from a re-analysis of the deposited data

How the results depend on the processing

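Of the 9 Klf regions, 5 passed, and 1 did with IgG taken as 4 times shallower or with column totals as library sizes, 9 with a pseudocount of 10, and 3 to 9 with a library left out. The counts moved with the whole table, of which 64.8% passed, 36.7% with IgG 2 times shallower and 26.8% with 4 times. With column totals 22.7% of all regions passed, and 43.4% and 92.6% with pseudocounts of 0.1 and 10. Leaving out either Pou4f1 library gave 3 (Klf3, Klf12 and Klf13; 29.4 and 30.9% of all), and leaving out either control gave 9 (94.4 and 95.9%). A left-out library leaves 1 in its group, which is then assumed to vary like the other group. With column totals the log2 difference became -1.15 at Klf5, -0.63 at Klf12, -0.90 at Klf13 and -1.90 at Klf16. Under that scaling 2 regions, not 9, had both Pou4f1 libraries above both controls. The share of all regions doing so was not counted, so the 2 cannot be read as a trait of the Klf regions. These values compare shares of each column total over the called regions, not signal against IgG. For the other Klf and Sp genes, 2 regions passed, and 1 did with IgG 2 times shallower or a pseudocount of 0.1, 7 with a pseudocount of 10, and 1 to 7 with a library left out. By limma 0 passed with IgG 4 times shallower (1 of 7 at an unadjusted p under 0.05) and 0 with column totals (0 of 7 unadjusted). The unadjusted shares of all regions were not counted, and are at least the 26.8% and 22.7% that passed. For the axon growth lists, 20 regions passed, and 10, 9 and 8 did with IgG 2 or 4 times shallower and with column totals, and 10 to 28 with a library left out. Leaving out either Pou4f1 library gave 10, and either control 28. The number of Klf regions was 14 within 50 kb. The median rank was 856 when signal was multiplied by length. The POU consensus was in 1 whole region, and the 7-letter core in 1 central window, beside 0 for the consensus there. The cause of these changes was not tested. All other alternatives tried on these counts moved them by at most 1.5 times, and the median rank by less than its spread between the Pou4f1 libraries. That spread (SD 1375) comes from the median ranks by replicates 1 and 2 alone, 1700 and 3644. Both are among these alternatives, so the comparison is no sign of stability.

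The growth class difference in signal, and its alternatives, were not run because Klf4 and Klf9 have no region. No paired analysis was possible because the control columns carry no replicate number. With 2 libraries a group and controls often at 0, a miss of the threshold does not show that a region did not differ.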

Other observations

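Within 50 kb of Klf7 there were 2 regions beyond the 20 kb limit, upstream of the gene, at chr1:64148928-64149593 (rank 1028) and chr1:64164925-64165476 (179 and 202 in the Pou4f1 libraries against 0 and 25.8, rank 3507). The region nearest to Klf9, 221 kb away and 29307 bp from the nearest start, that of AC131118.1, had 684 and 708 in the Pou4f1 libraries and was at 0 in both controls (rank 111). The region nearest to Klf4, over the start of Rad23b, had 564 and 535 against 39.0 and 22.4 (rank 262).

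Among the axon growth genes, a region inside Dclk2, which encodes a microtubule-associated kinase, had 628 and 34.9 in the Pou4f1 libraries and 445 and 0 in the controls. It was the 1 of 29 regions of those lists in which the Pou4f1 libraries were not both above both controls.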
